A study of Arabidopsis thaliana with 43 samples.

Results

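The genes of the plastid chromosome of Arabidopsis thaliana were followed through embryo development. They were taken as every locus whose identifier starts with ATCG, and the values of a locus's transcripts were summed. Of the 33667 loci listed, spike-ins and further non-coding RNAs included, 88 plastid loci code for proteins, 37 for tRNAs and 8 for rRNAs. All embryos were wild-type Col-0, collected in pools of 50 from plants kept under a long-day light cycle, so each library is a mean over 50 embryos. The developmental series had 8 stages: preglobular (embryos of 8 or 16 cells), globular, early heart, late heart, early torpedo, late torpedo, bent cotyledon and mature green, with 3 biological replicates each, all made with Smart-seq2. Bent-cotyledon RNA was also diluted and made into libraries with Smart-seq2 from 0.1, 0.5, 1 and 5 ng (3 replicates each), and with the Ovation PicoSL WTA System V2 and the SMARTer Ultra Low Input v3 kit from 0.05, 0.1, 0.5, 1 and 5 ng, with 1 library per amount. The 5 ng Smart-seq2 libraries are the bent-cotyledon stage of the series. The amount of RNA that went into the libraries of the other 7 stages is given as unknown.

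Plastids keep a small genome that codes for part of the photosynthetic machinery and for part of the apparatus that expresses it. The rest of each complex is encoded in the nucleus. Plants transcribe this genome with a bacterial-type polymerase, whose core subunits are the rpo genes, and in Arabidopsis also with nuclear-encoded phage-type polymerases. Many plastid genes lie in operons and are transcribed together. Arabidopsis embryos turn green as they grow and lose their chlorophyll late in maturation. Smart-seq2 and the SMARTer kit prime cDNA with oligo(dT), and most plastid RNA carries no poly(A) tail, so the levels given here are those of the RNA the method copied.

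Gene names follow the plastid annotation of RefSeq (TAIR10.1), in which 112 of the loci, 78 of them protein-coding, matched a gene of the same name and length. The other 21 loci are called by their identifiers and were kept in the class that the locus numbering gives them. These are 3 of 12 NDH loci, 3 of 26 ribosomal protein loci, 4 of 13 other protein loci, 2 of 8 rRNA loci and 9 of 37 tRNA loci. The sequences of 6 genes, picked as examples, are shown here from RefSeq, 5′ to 3′ on the coding strand. Every run of at least 5 adenines is in capitals. psbM, petL and rpl32 are short genes that were much lower with both commercial kits, psbA and psbE stand at the other end, and the stretch of rpoA holds its longest adenine run. psbM lies at chloroplast:28707-28811 (minus strand), petL at chloroplast:65712-65807 (plus), rpl32 at chloroplast:113449-113607 (plus), psbE at chloroplast:64071-64322 (minus), psbA at chloroplast:383-1444 (minus) and rpoA at chloroplast:77901-78890 (minus). Each is a single exon of coding sequence. The first 4 are whole, psbA is given from base 1 to 150 of 1062 and rpoA from base 708 to 857 of 990.
psbM: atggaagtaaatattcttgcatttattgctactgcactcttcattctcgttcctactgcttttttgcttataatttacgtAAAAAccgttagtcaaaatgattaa
petL: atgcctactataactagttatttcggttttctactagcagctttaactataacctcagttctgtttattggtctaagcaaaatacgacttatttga
rpl32: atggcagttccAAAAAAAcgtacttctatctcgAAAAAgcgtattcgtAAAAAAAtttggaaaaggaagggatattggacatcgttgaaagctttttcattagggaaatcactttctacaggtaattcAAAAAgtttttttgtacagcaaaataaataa
psbE: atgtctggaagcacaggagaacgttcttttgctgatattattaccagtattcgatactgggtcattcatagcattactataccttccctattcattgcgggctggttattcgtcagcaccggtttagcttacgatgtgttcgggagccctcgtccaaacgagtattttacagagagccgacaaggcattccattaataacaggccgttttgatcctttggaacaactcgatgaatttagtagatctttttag
psbA: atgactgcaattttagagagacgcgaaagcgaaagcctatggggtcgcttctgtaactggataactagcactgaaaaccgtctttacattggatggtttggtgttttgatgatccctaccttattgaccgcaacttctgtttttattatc
rpoA: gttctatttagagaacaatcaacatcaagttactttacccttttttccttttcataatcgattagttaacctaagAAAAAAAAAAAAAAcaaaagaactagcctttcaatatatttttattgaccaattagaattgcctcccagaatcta
The petL, psbE and psbA stretches hold no such run, psbM holds 1 and rpl32 holds 4, and the run of rpoA has 14 bases.

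The 24 stage libraries held between 8432892 and 35807605 estimated counts. Plastid loci took 0.788 to 0.949% of the counts at the preglobular stage, 0.717 to 1.11% at globular, 1.28 to 1.72% at early heart, 2.15 to 2.22% at late heart, 2.57 to 2.73% at early torpedo, 3.41 to 4.21% at late torpedo, 6.61 to 9.60% at bent cotyledon and 1.06 to 1.77% at mature green. The ranges of neighbouring stages did not overlap from early heart onward, while preglobular and globular libraries overlapped. In whole embryos fewer cells of a type and less RNA per cell cannot be told apart. Levels below are CPM (counts scaled to library size) after TMM scaling, and TPM where genes are set side by side, since TPM divides by length. The scaling factors lay between 0.553 and 0.628 in the mature green libraries, against 0.838 to 1.302 in the other 21. A fold change on the TPM scale is a share of all RNA, and on that scale the median of all genes lay 0.26 (log2) below 0 for mature green against preglobular and 0.44 below 0 for mature green against bent cotyledon, against 0.05 above and 0.01 above 0 in the count fit. 3 libraries stood apart in these genes: rRNA was 17.6% of plastid counts in globular replicate 1 and 25.7% in early torpedo replicate 2, each far below its fellow replicates, and late torpedo replicate 1 was high for psaB. Early torpedo replicate 2 also stood apart in nuclear genes: endosperm markers summed to 218 CPM there, against 38.2 and 37.4 CPM in replicates 1 and 3, and nuclear subunits of the photosynthetic complexes to 37195 CPM, against 14877 and 15735 CPM. Over the stages from preglobular to mature green the endosperm markers summed to 23.2 to 25.6, 19.7 to 31.5, 19.7 to 28.1, 35.0 to 63.4, 37.4 to 218, 95.0 to 190, 86.5 to 167 and 185 to 233 CPM. At early torpedo SUC5 averaged 94.1 ± 104 CPM and the other 9 were at 2.06 CPM or less. At mature green 1 gene of the 10, EPR1, gave 200.24 CPM on average, while FWA, MEA, FIS2, MPC and PHE1 were at 0.13 CPM or less. Seed coat markers summed to 24.4 to 50.7 CPM at mature green, against 103 to 108 CPM at bent cotyledon and 23.1 to 25.9 CPM at preglobular, and BAN and TT16 were at 0.26 CPM or less in the 2 late stages. The part of these cell types in the results below was not tested. The 8 embryo markers summed to 1827 to 2501 CPM at mature green, against 4080 to 4106 CPM at preglobular. ABI3 averaged 297 ± 6.46 CPM at mature green and 29.9 ± 5.09 CPM at preglobular, FUS3 averaged 94.3 ± 7.01 CPM and 19.2 ± 2.36 CPM, and the other 6 fell, among them LEC1 and LEC2, at 0.129 and 0.106 CPM on average at mature green.

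The mean levels of the classes were highest at bent cotyledon, except for tRNA, and the multiples of their preglobular means were unequal. Summed over the 5 photosystem I loci, expression averaged 358 ± 78.5 CPM at preglobular, 10884.8 ± 1899 CPM at bent cotyledon and 5719 ± 1619 CPM at mature green (SD, n = 3 each here and below), so the mean was 30.4 times the preglobular mean at bent cotyledon and still 16.0 times at mature green. The 15 photosystem II loci stood at 16.7 and 9.33 times their preglobular mean at those 2 stages, and the 6 cytochrome b6f loci at 9.64 and 4.28 times. The ATP synthase loci reached 6.84 times and stood at 2.07 times at mature green, the NDH loci 7.86 and 3.45 times, and the single Rubisco locus rbcL 6.64 and 1.39 times.

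Apart from rRNA, the classes of the expression apparatus had smaller multiples than the photosynthetic classes, and stood below their preglobular mean at mature green. The 26 ribosomal protein loci averaged 1475 ± 148 CPM at preglobular, 4684 ± 531 CPM at bent cotyledon and 1027 ± 351 CPM at mature green, which is 3.17 and 0.696 times the preglobular mean. The 4 RNA polymerase loci averaged 488 ± 78.1, 1331 ± 167 and 176 ± 8.12 CPM at the same stages, or 2.73 and 0.360 times. tRNA loci stood at 4.24 and 0.663 times and the other proteins at 2.80 and 0.548 times. rRNA was the exception, at 10.6 times at bent cotyledon and 2.73 times at mature green. At globular the rRNA sum was 2583 ± 1263 CPM, 0.517 of the preglobular mean, while photosystem I already stood at 2.02 times. Bent cotyledon was the stage of the highest mean for 93 of the plastid loci, late torpedo for 29, preglobular for 4, mature green for 3, late heart for 2 and globular and early torpedo for 1 each.

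**Figure D1:**
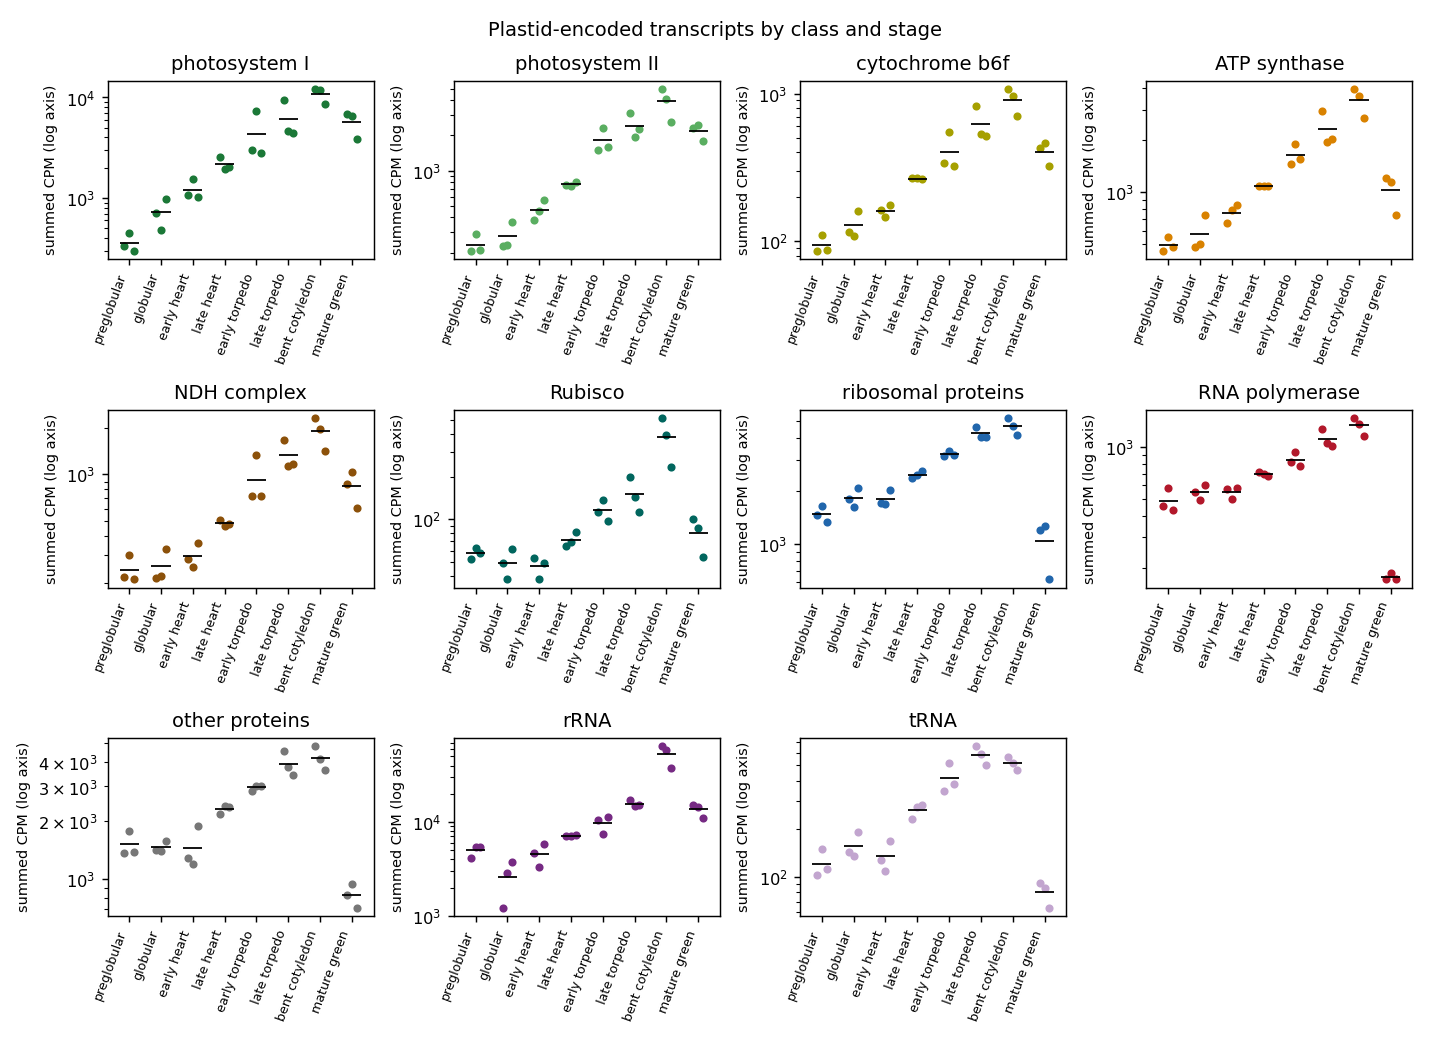
Summed CPM of each class of plastid genes at the 8 stages (horizontal axis, in developmental order), on log axes with a scale for each panel; points are libraries and bars are means (n = 3). At mature green the photosystem means stand at 16.0 and 9.33 times their preglobular means, and those of RNA polymerase and ribosomal proteins at 0.360 and 0.696 times.

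Photosystem I has 5 plastid-encoded subunits, of which PsaA and PsaB form the reaction centre core and PsaC binds iron-sulphur clusters. psaB had 171.5, 224.3 and 156.9 CPM at preglobular, 6641, 6213 and 4507 CPM at bent cotyledon and 3927, 3754 and 2277 CPM at mature green. The 3 stages did not overlap. At the stages between, 1 library stood out each time: early torpedo replicate 2 had 4948 CPM against 1680.32 and 1512 CPM in its fellows, and late torpedo replicate 1 had 5742 CPM against 2529.99 and 2404 CPM. psaA followed the same course, with 131.4, 187.7 and 116.8 CPM at preglobular, 5068, 5273 and 3927 CPM at bent cotyledon and 2745, 2535 and 1482 CPM at mature green. psaC was lower but kept the order, at 6.98, 7.80 and 5.53 CPM, 158.9, 142.3 and 107.5 CPM, and 66.4, 65.5 and 47.2 CPM at those 3 stages. psaJ, a small membrane subunit, differed in timing: it had 120.7, 118.0 and 74.3 CPM at bent cotyledon, against 203.3, 266.1 and 199.6 CPM at late torpedo, its highest stage, with no overlap. In TPM, the scale on which genes can be ranked, psaJ (1059 TPM over the 24 stage libraries), psaB (881 TPM) and psaI (731 TPM) led the class. psaI and psaJ are short, and the effective length that divides their counts changes between libraries, so their rank is less sure than that of psaB.

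Photosystem II splits water, and psbA codes for its D1 protein, which turns over rapidly in the light. psbA stayed low until late torpedo, with 11.4, 16.8 and 14.3 CPM at preglobular, 18.6, 20.6 and 16.8 CPM at early torpedo and 27.8, 20.4 and 20.0 CPM at late torpedo. It then had 168.6, 114.2 and 61.7 CPM at bent cotyledon and 252.0, 235.5 and 309.4 CPM at mature green, above every earlier library. psbM and psbK, which code for small subunits, led the class per length, at 9574.5 and 2403 TPM over the 24 libraries. psbM had 44.8, 69.9 and 52.4 CPM at preglobular, 875.5, 888.1 and 504.5 CPM at bent cotyledon and 780.5, 939.7 and 677.6 CPM at mature green, where the last 2 stages overlap. Since psbM is 105 bases long and its effective length depends on the library, its TPM is not a firm measure of its rank. psbK had 19.1, 30.9 and 18.6 CPM at preglobular, 882.4, 878.5 and 510.6 CPM at bent cotyledon and 405.0, 483.0 and 279.6 CPM at mature green, with no overlap between stages. psbN lies opposite psbT and psbH, psbD and psbC overlap, and no strand is stated for the counting, so reads of these neighbours may be split uncertainly.

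The other complexes of photosynthesis followed the same course with smaller multiples. petB, the cytochrome b6 of the cytochrome b6f complex, had 43.6, 57.1 and 46.2 CPM at preglobular, 567.3, 521.5 and 400.7 CPM at bent cotyledon and 292.5, 322.2 and 234.9 CPM at mature green. Among ATP synthase genes, atpE led per length (1313 TPM over the 24 libraries), followed by atpB (479 TPM) and atpH (158 TPM). atpE had 133.6, 175.3 and 157.8 CPM at preglobular, 1039, 1015 and 769.1 CPM at bent cotyledon and 346.5, 354.7 and 244.2 CPM at mature green. rbcL, which codes for the large subunit of Rubisco, the enzyme that fixes CO2, had 52.5, 62.9 and 58.2 CPM at preglobular, 523.3, 397.4 and 233.4 CPM at bent cotyledon and 99.9, 86.4 and 54.5 CPM at mature green, where it overlapped the preglobular libraries. ndhC, of the NDH complex that moves electrons around photosystem I, had 13.7, 18.6 and 11.5 CPM, 107.1, 101.2 and 91.4 CPM, and 66.2, 75.4 and 46.3 CPM at these 3 stages. ndhH of the same complex had 6.87, 8.45 and 5.00 CPM at mature green and 5.40, 8.52 and 5.01 CPM at preglobular, so its 2 ends of the series overlapped.

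The polymerase and ribosomal protein genes had their highest mean at bent cotyledon or late torpedo, and most had their lowest at mature green. rpoB, the β subunit of the plastid polymerase, had 31.7, 49.5 and 27.2 CPM at preglobular, 111.4, 82.8 and 71.3 CPM at bent cotyledon and 12.8, 11.9 and 11.3 CPM at mature green. rpoC1 had 99.6, 113.9 and 84.0 CPM, 287.7, 251.8 and 208.0 CPM, and 23.4, 27.9 and 24.7 CPM at the same stages. rpoA, the α subunit, led the class per length at 329 TPM, followed by rpoC2 at 59.1 TPM and rpoC1 at 55.2 TPM. For all 3 of rpoA, rpoC2 and rpoC1 the mature green libraries lay below every other library of the series. rpl2, a protein of the large ribosomal subunit, had 241.9, 241.1 and 213.9 CPM at preglobular, 500.4, 451.9 and 447.3 CPM at bent cotyledon and 68.8, 66.3 and 27.7 CPM at mature green. rps14, of the small subunit, differed from most of its class: it had 6.89, 9.42 and 8.39 CPM at preglobular, 153.3, 120.6 and 88.7 CPM at bent cotyledon and 94.1, 128.6 and 81.9 CPM at mature green. rpl32, the ribosomal protein gene with the highest level per length (3844 TPM over the 24 libraries, from a gene of 159 bases), also ended higher, at 341.8, 388.2 and 130.3 CPM at mature green, against 80.3, 118.0 and 79.9 CPM at preglobular.

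**Figure D2:**
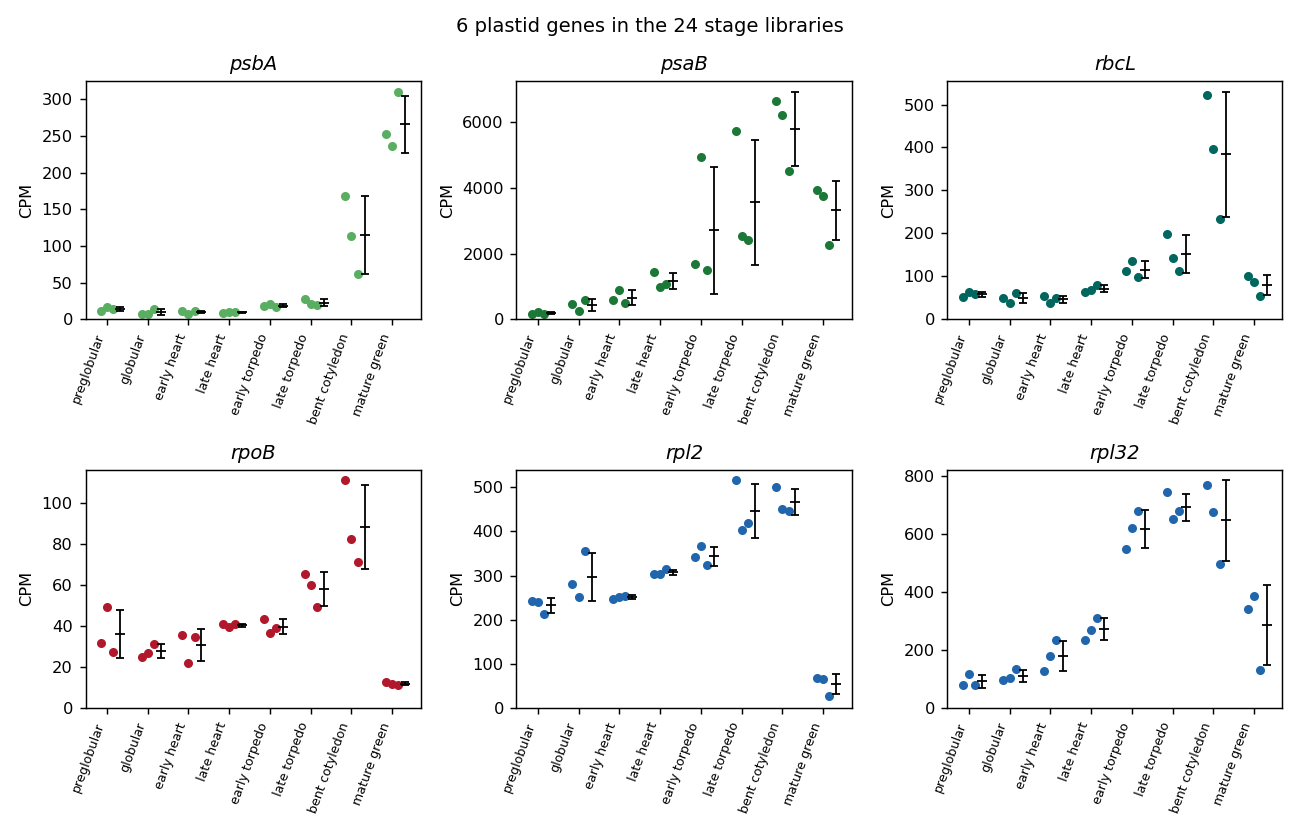
CPM of psbA, psaB, rbcL, rpoB, rpl2 and rpl32 (vertical axes, each with its own scale) in the 24 stage libraries, ordered by stage; points are replicates and bars are mean ± SD (n = 3). psbA alone of the 6 is highest at mature green, and rpoB and rpl2 have their lowest libraries there.

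The remaining loci held further contrasts. accD, a subunit of the acetyl-CoA carboxylase that starts fatty acid synthesis, had 101.8, 133.3 and 114.2 CPM at preglobular, 592.8, 532.9 and 382.7 CPM at bent cotyledon and 196.0, 226.1 and 140.6 CPM at mature green. clpP, the plastid-encoded subunit of the Clp protease, varied less, at 38.9, 51.7 and 39.1 CPM, 97.1, 81.9 and 66.7 CPM, and 29.3, 35.3 and 30.9 CPM at those stages. The large reading frame ycf2 had 74.5, 81.6 and 95.7 CPM at mature green, against 246.8, 308.8 and 260.1 CPM at preglobular. Both copies of rrn23, the rRNA of the large ribosomal subunit, together held 13.6 to 45% of the plastid counts from preglobular to late torpedo, 52.9 to 56.7% at bent cotyledon and 42.8 to 48.5% at mature green. rrn23 had 1727, 2234 and 2253 CPM per copy at preglobular, 28805.7, 25706 and 16700.8 CPM at bent cotyledon and 6434, 6118 and 4863 CPM at mature green. rrn4.5 had 21.5, 33.4 and 32.9 CPM, 210.9, 146.7 and 103.1 CPM, and 11.4, 11.1 and 8.25 CPM, so at mature green it lay below its preglobular libraries while rrn23 lay above. Genes of the inverted repeat are listed as 2 loci, 1 for each copy. Of 18 such pairs, the copies of all but ATCG00930 and ATCG01200 were within 0.5 of a count in all 43 libraries, so a count of loci holds these genes 2 times. ATCG00930 and ATCG01200 were that close in 1 library.

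Between neighbouring stages the numbers of plastid genes that passed the test varied widely. At globular against preglobular, 15 of the 130 tested loci rose and 6 fell (edgeR's quasi-likelihood test, Benjamini-Hochberg adjusted p under 0.05), against 11.4% higher and 12.2% lower among all genes tested, 23.6% in all. The rises included 9 of 26 ribosomal protein loci and 2 of 5 photosystem I loci, led by psbK (2.44-fold, log2 1.29, SE 0.35, adjusted p = 0.0100), psaB (2.36-fold, log2 1.24, SE 0.42, adjusted p = 0.0359) and rpl33 (1.68-fold, log2 0.75, SE 0.18, adjusted p = 0.00386). On the TPM scale 63 loci were higher and none lower, so no fall was called there, and the median of all genes moved by 0.35 (log2). The shares of all genes given above belong to the count fit and not to that scale. The 6 falls of the count fit were both copies of rrn16, rrn23 and the NDH locus listed as ATCG00890 and ATCG01250. Without globular replicate 1, the library low in rRNA, 11 loci passed, and without preglobular replicate 3 only 8. With other libraries left out the split turned, for example 6 higher and 11 lower without preglobular replicate 1.

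At early heart against globular 8 loci rose and none fell, against 8.57% higher and 9.03% lower among all genes, 17.6% in all. These were psbB, psbT, psbN, psbH and psbK of the class listed as photosystem II, psaA, and both copies of rrn23. psbB, the CP47 antenna protein, rose 2.29-fold (log2 1.19, SE 0.38, adjusted p = 0.0321) with overlapping libraries, and psaA rose 2.01-fold (log2 1.01, SE 0.31, adjusted p = 0.0286) without overlap. The count was 1 and 4 without globular replicates 1 and 2, and 5 and 2 without early heart replicates 1 and 3. At late heart against early heart 2.45% of all genes were called, 1.22% higher and 1.23% lower; the median plastid locus was higher by 0.68 (log2), against 0.00 over all genes, and the late heart libraries of 105 of the 130 tested loci lay wholly above the early heart libraries (80.8%, against 16.7% of all genes). 15 of the 130 passed, all higher, and they included 8 tRNA loci, both copies of the rRNA listed as ATCG00970 and ATCG01160, and rpl33 (1.69-fold, log2 0.76, SE 0.17, adjusted p = 0.0203). From 1 to 8 loci passed when any 1 of the 6 libraries except early heart replicate 3 was left out.

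At early torpedo against late heart, where 19% of all genes were called, 13.3% higher and 5.76% lower, 42 of the 130 tested plastid loci rose and none fell. They were 10 of 15 in photosystem II, 4 of 5 in photosystem I, 4 of 6 in ATP synthase, 5 of 12 in NDH, 1 of 6 in cytochrome b6f, 5 of 26 among ribosomal proteins, 9 of 34 tRNA loci, 2 of 8 rRNA loci and 2 of 13 other loci, with none of 4 in RNA polymerase and not rbcL. psbM rose 3.36-fold (log2 1.75, SE 0.29, adjusted p = 0.000541) and psbK 2.59-fold (log2 1.38, SE 0.34, adjusted p = 0.00976). Whether these shares differ between classes was not tested, and the count depended on single libraries. It was 11, 14 and 25 without late heart replicates 1, 2 and 3, and 12 without early torpedo replicate 2. That library was high in 1 endosperm marker, SUC5, and in nuclear subunits of the photosynthetic complexes. The part of either in the count was not tested. On the TPM scale 6 loci were higher and 4 lower, while the shares of all genes given above belong to the count fit. At late torpedo against early torpedo 1.13% of all genes were called, with 0.666% called higher, and psaJ was the 1 plastid locus that rose (2.13-fold, log2 1.09, SE 0.27, adjusted p = 0.0476). Leaving out early torpedo replicate 2 raised the count to 20, all higher; each of the other 5 omissions gave 0. The median difference of the 130 loci was 0.55 (log2), against 0.02 over all genes.

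At bent cotyledon against late torpedo 45 plastid loci rose and 8 fell, against 33.3% called among all genes, 13.7% higher and 19.7% lower. psbA rose most among the coding loci with at least 50 CPM (5.04-fold, log2 2.33, SE 0.29, adjusted p = 4.01e-06), followed by psbT (3.42-fold, log2 1.77, SE 0.34, adjusted p = 0.000402) and psbB (2.96-fold, log2 1.57, SE 0.38, adjusted p = 0.00288). rbcL rose as well, by 1.34 on the log2 scale. Both copies of rrn16, rrn23 and rrn4.5 rose, those of ATCG00970 and ATCG01160 fell, and 3 of the 4 polymerase genes rose, all but rpoA. The 2 coding loci that fell were psaJ (2.14-fold, log2 -1.10, SE 0.27, adjusted p = 0.00327) and ycf1 (1.61-fold, log2 -0.68, SE 0.25, adjusted p = 0.0394). The count was 35 and 29 without late torpedo replicates 2 and 3, and 29 and 34 without bent cotyledon replicates 1 and 2. Over all 8 stages, 125 of the 130 loci differed somewhere, against 91.1% of all genes.

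At mature green against bent cotyledon almost the whole plastid genome was lower. Of the 130 loci 116 fell and 1 rose, against 28.2% lower and 27.2% higher among all genes, 55.4% in all. The locus that rose was psbA, by 2.32-fold (log2 1.21, SE 0.28, adjusted p = 0.000871). On the TPM scale the psbA libraries of the 2 stages overlapped. They had 142.6, 122.6 and 152.6 TPM at mature green and 135.7, 100.5 and 61.7 TPM at bent cotyledon. The difference was 0.55 (log2, limma) and still passed as higher. All 117 loci called in the count fit passed in the same direction on that scale. The coding loci that did not pass were psaB, psbM, rps14, ndhJ, ndhK and ATCG01000, a second ycf1 locus listed at 0 in all mature green libraries. psaB had a difference of -0.80 (log2, SE 0.41, adjusted p = 0.107) although its libraries did not overlap, and rps14 one of -0.25 (SE 0.31, adjusted p = 0.513). On the TPM scale psaB, rps14 and psbM passed as lower, with psbM at -0.94, against 0.08 in the count fit.

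Among coding loci with at least 50 CPM at bent cotyledon, the largest falls were in ribosomal protein and polymerase genes and ATCG00040. Some rRNA and tRNA loci fell further, among them both copies of rrn4.5 (log2 -3.90, SE 0.32, adjusted p = 2.03e-09). rpl16 fell 11.1-fold (log2 -3.47, SE 0.21, adjusted p = 2.29e-11), ATCG00040 fell 10.8-fold, rpl23 10.3-fold and rpoC1 9.82-fold. Several photosynthetic genes had smaller folds: psaA fell by 2.11-fold (log2 -1.08, SE 0.31, adjusted p = 0.00554), petB by 1.75-fold and atpE by 2.99-fold, while rbcL fell 4.79-fold (log2 -2.26, SE 0.28, adjusted p = 6.09e-07). All 4 polymerase loci, 25 of 26 ribosomal protein loci, all 8 rRNA loci, 27 of 34 tested tRNA loci and 12 of 13 other protein loci fell. So did all 6 ATP synthase, all 6 cytochrome b6f, 13 of 15 photosystem II, 4 of 5 photosystem I and 10 of 12 NDH loci.

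The ends of the series, mature green against preglobular, gave rises and falls in numbers not far from the background: 56 of the 130 loci rose and 46 fell, against 38.5% higher and 37.4% lower among all genes, 75.9% in all. On the TPM scale the split was 46 higher and 57 lower, while these shares of all genes belong to the count fit. All 5 photosystem I, 15 photosystem II, 6 cytochrome b6f and 6 ATP synthase loci rose, and 7 of 12 NDH loci did, with none falling, while rbcL did not pass. All 4 polymerase loci and 17 of 26 ribosomal protein loci fell, and 2 ribosomal protein loci rose. Other classes held both directions, with 4 rRNA loci higher and 4 lower, 6 tRNA loci higher and 14 lower, and 5 other protein loci higher and 7 lower. The classes were not compared by a test. When each of the 6 libraries was left out in turn, the counts of the photosystem, cytochrome, ATP synthase, polymerase and rRNA loci did not move, and 16 to 17 ribosomal protein loci were lower. On the TPM scale 5 photosystem I, 15 photosystem II, 4 cytochrome b6f and 4 ATP synthase loci were higher, and 4 polymerase and 22 ribosomal protein loci were lower.

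Among the risers psbA stood first with 252.0, 235.5 and 309.4 CPM at mature green against 11.4, 16.8 and 14.3 CPM at preglobular, an 18.7-fold rise (log2 4.23, SE 0.31, adjusted p = 1.02e-10). psaB rose 18.0-fold (log2 4.17, SE 0.47, adjusted p = 6.20e-08), psbK 17.0-fold (log2 4.09, SE 0.38, adjusted p = 4.03e-09) and psaA 15.5-fold (log2 3.95, SE 0.35, adjusted p = 1.34e-09). petB rose 5.78-fold, atpE 2.03-fold and accD 1.61-fold, although the rises of accD and of atpB did not pass on the TPM scale. rbcL was not among them, with a difference of 0.47 (log2, SE 0.27, adjusted p = 0.114).

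Among the loci that fell, rpl2 had 68.8, 66.3 and 27.7 CPM at mature green against 241.9, 241.1 and 213.9 CPM at preglobular, a 4.28-fold fall (SE 0.22 on the log2 scale, adjusted p = 2.60e-08). rps19 fell 3.95-fold (log2 -1.98, SE 0.22, adjusted p = 7.39e-08), rpoC1 3.91-fold (log2 -1.97, SE 0.18, adjusted p = 3.54e-09), rpoB 3.02-fold and rpoA 1.94-fold. ycf1 fell 3.47-fold and clpP 1.36-fold. The 2 ribosomal protein loci that rose were rps14, by 12.3-fold (log2 3.62, SE 0.34, adjusted p = 4.98e-09), and rpl32, by 3.09-fold (log2 1.63, SE 0.30, adjusted p = 4.19e-05). rRNA loci split, with both copies of rrn16 (2.60-fold) and rrn23 (2.80-fold) higher and those of rrn4.5 and of ATCG00970 and ATCG01160 lower. Of 34 tested tRNA loci 6 rose and 14 fell; tRNAs are shorter than most library fragments and their counts are low, for example 9.23, 11.4 and 6.92 CPM at mature green for ATCG00030, against 19.2, 26.8 and 20.7 CPM at preglobular.

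**Figure D3:**
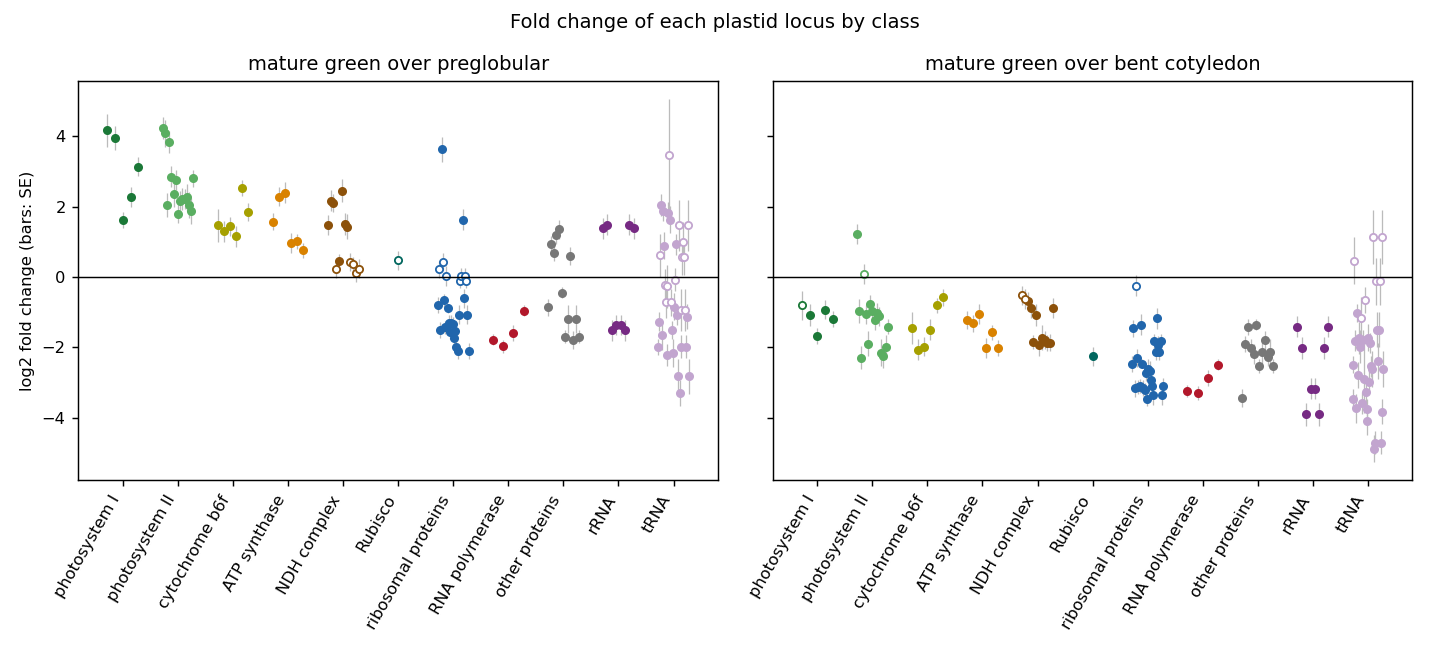
log2 fold change of each tested plastid locus by class, at mature green over preglobular (left) and over bent cotyledon (right), with bars of 1 SE; filled points passed at adjusted p under 0.05 and ATCG01000, listed at 0 in all mature green libraries, is left out. In the left panel every photosystem point is above 0 and every RNA polymerase point below it; in the right panel psbA is the 1 filled point above 0.

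Loci with the same direction often lay next to each other on the plastid chromosome. psaA, psaB and rps14, which are neighbours, rose by 15.5-, 18.0- and 12.3-fold, so rps14 had the fold of the photosystem genes beside it and not of its class. The neighbours atpI, atpH, atpF and atpA rose, by 0.95, 2.40, 2.28 and 1.57 on the log2 scale, whereas rps2, rpoC2, rpoC1 and rpoB beside them had log2 values of -1.50, -1.79, -1.97 and -1.59. psbB, psbT, psbH, petB and petD rose by 2.26, 2.04, 2.80, 2.53 and 1.84 on the log2 scale, and rpoA, rpl36, rpl14, rpl16, rps3, rpl22, rps19, rpl2 and rpl23, which follow them, fell. Further runs that rose were psbE, psbF, psbL and psbJ, with log2 values of 2.22, 2.22, 2.15 and 1.80, and ndhC, ndhK and ndhJ, which rose 4.29-, 4.49- and 2.80-fold.

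**Figure D4:**
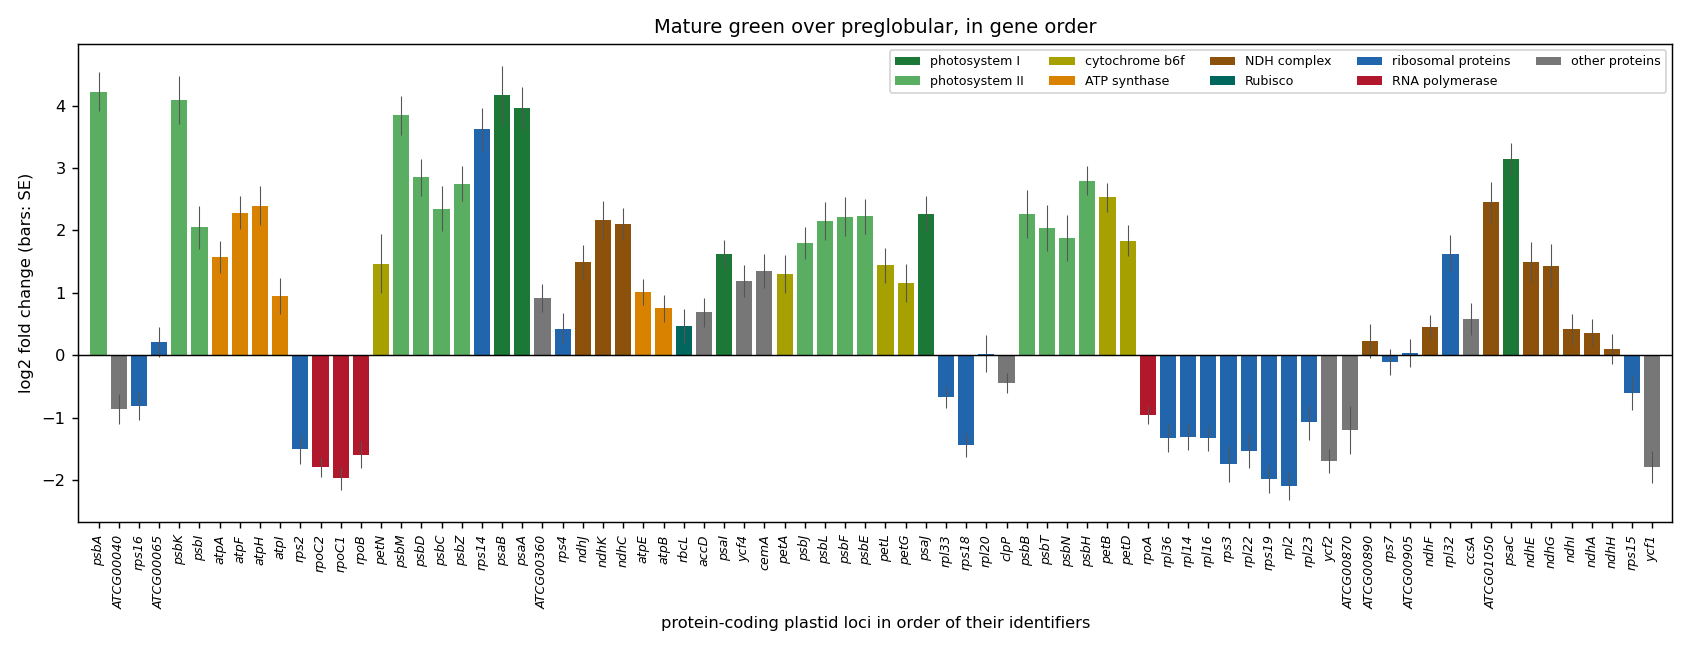
log2 fold change at mature green over preglobular (vertical axis, bars of 1 SE) for the protein-coding plastid loci reported here, in the order of their identifiers, coloured by class, with 1 copy of each repeated gene and without ATCG01000. Blocks of the same sign are visible: psaA, psaB and rps14 stand together near 4, and the bars from rpoA to rpl23 lie below 0.

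The direction also went with the base composition of the genes. Over the 74 protein-coding loci with a RefSeq match, 1 copy each, the share of adenine and the log2 fold change at mature green over preglobular had a Spearman correlation across genes of -0.72, and coding length and the fold change one of -0.27. Genes are not independent replicates, and operon, class and base composition are shared among these points. The median adenine share was 25.0% in photosystem II, 25.7% in cytochrome b6f, 26.7% in photosystem I, 29.4% in NDH, 30.65% in ATP synthase, 32.5% in RNA polymerase and 35.8% in ribosomal protein genes. rpl32, with an adenine share of 39.6%, was among the loci that rose. The part of base composition in the stage differences was not tested.

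Nuclear genes for the same machineries were read from lists of known partners. At mature green against preglobular 27 of 33 nuclear subunits of the photosynthetic complexes rose and 1 fell, and the median was 3.23 (log2), where 38.5% of all genes were called higher and 37.4% lower. For example RBCS1A, a Rubisco small subunit, averaged 2443 ± 707 CPM at mature green and 103 ± 74.1 CPM at preglobular, and PSBR 1269 ± 530 CPM and 37.4 ± 22.5 CPM. Of 28 nuclear genes for plastid ribosomal proteins none rose and 26 fell, with a median of -1.02. Of 20 genes of the plastid transcription machinery 2 rose and 11 fell; the risers were the sigma factors SIG5, at 88.3 ± 36.9 CPM at mature green against 0.807 ± 0.376 CPM at preglobular, and SIG3, at 5.91 ± 1.64 CPM against 3.13 ± 0.665 CPM. SIG6 fell to 2.57 ± 1.01 CPM at mature green, against 11.2 ± 1.82 CPM at preglobular. SIG5 is known to direct transcription of psbD and to respond to light and stress. Of 12 partners of AccD and ClpP 6 rose and 2 fell, beside 38.5% and 37.4% of all genes, and CAC2, the biotin carboxylase that works with AccD, averaged 602 ± 127 CPM and 166 ± 15.7 CPM. At mature green against bent cotyledon 29 of 33, 28 of 28, 16 of 20 and 12 of 12 genes of these 4 lists fell, against 28.2% of all genes. The plastid-encoded members and the nuclear lists were not compared by a test.

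Dilution of the bent-cotyledon RNA was tested within Smart-seq2. None of the 122 tested loci passed at 0.1, 0.5 or 1 ng against 5 ng (edgeR; background 0.205%, 0% and 0%), DESeq2 also called none, and 2, 1 and 0 loci had an unadjusted p under 0.05. At 0.1 ng, 119 of the 122 fold changes were within 1 on the log2 scale of 0, and the median was -0.18, against -0.03 over all genes. psbT came nearest, at 44.9 ± 10.6 CPM at 0.1 ng and 82.2 ± 26.9 CPM at 5 ng (log2 -0.83, SE 0.36, adjusted p = 0.465). The labels tie same-numbered libraries to 1 RNA. With that RNA as a block no plastid locus passed at any amount either (lowest adjusted p = 0.130 at 0.1 ng), and the count over all genes at 0.1 ng was 0, against 35 without the block. Within an RNA, 45 of the 122 loci were lower at 0.1 ng than at 5 ng in all 3 pairs (36.9%, against 17.7% of all genes) and 7 were higher in all 3 (5.74%, against 9.92%). Under the block 31 of the loci had an unadjusted p under 0.05 at 0.1 ng (25.4%, against 12.1% of all genes), 29 of them lower. At 0.5 ng 9 loci did (7.38%, against 1.01% of all genes), only 2 of them lower. At 1 ng 0 loci did, against 0.181% of all genes. At 0.5 ng 19 loci were lower in all 3 pairs and 25 higher, against 13.7% and 13.5% of all genes, and at 1 ng 23 and 9, against 12.4% and 13.2%. psbT had 52.4, 49.6 and 32.8 CPM at 0.1 ng, against 107.4, 85.4 and 53.9 CPM at 5 ng, lower in each of the 3 RNAs (blocked log2 -0.85, SE 0.19, adjusted p = 0.134). Differences at 0.1 ng thus missed the threshold, which does not show that the amounts gave equal values. 2 loci were lower at 0.1 ng when replicate 3 of that amount, the shallowest library with 1021484 counts, was left out. Replicates differed more than amounts for psbA, with 100.5, 65.7 and 56.9 CPM at 0.1 ng, 213.7, 77.1 and 45.3 CPM at 0.5 ng, 196.9, 100.5 and 48.8 CPM at 1 ng and 170.6, 116.2 and 62.3 CPM at 5 ng. The RNA of replicate 1 was highest and that of replicate 3 lowest at every amount, and in each RNA psbA was lower at 0.1 ng than at 5 ng.

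The 2 commercial kits, used on RNA of the same stage, gave lower values than Smart-seq2 for most plastid loci. Plastid loci took 20.4 to 24.5% of counts with Ovation and 4.94 to 7.36% with SMARTer, against 6.61 to 10.8% with Smart-seq2, and rRNA made up 92.2 to 93.3%, 85.0 to 90.4% and 59.2 to 70.5% of those plastid counts. With 1 library per amount no test was possible, so a locus was counted as different where log2(TPM + 1) differed from the mean of the 3 Smart-seq2 libraries by at least 2, with the same sign, at 0.1, 0.5, 1 and 5 ng. By that rule 77 plastid loci differed with Ovation, 1 higher and 76 lower, against 29.6% of all detected genes, 0.0473% higher and 29.5% lower. 57 loci were lower with SMARTer and none higher, against 0.507% lower and 0.15% higher among all detected genes, 0.657% in all. The median plastid locus was lower by 2.74 (log2) with Ovation and 2.57 with SMARTer, against 1.31 and 0.20 over all genes.

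Ribosomal protein loci were lower with Ovation in 24 of 26 cases and RNA polymerase loci with SMARTer in 4 of 4, and none of the 8 rRNA loci differed by the rule with either kit. With Ovation 6 of 15 photosystem II, 4 of 5 photosystem I, 3 of 4 polymerase, 5 of 12 NDH, 3 of 6 cytochrome b6f, 3 of 6 ATP synthase and 20 of 37 tRNA loci were lower. With SMARTer 14 of 26 ribosomal protein, 3 of 15 photosystem II, 3 of 5 photosystem I, 5 of 12 NDH, 4 of 6 cytochrome b6f, 2 of 6 ATP synthase and 14 of 37 tRNA loci were lower. Whether classes differ in these shares was not tested.

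The largest gaps with Ovation were in the short genes shown above. psbM had 52.9, 33.9, 66.6 and 25.0 TPM with Ovation at 0.1, 0.5, 1 and 5 ng, against means of 17015, 15609, 16282 and 18693 TPM with Smart-seq2, a mean difference of -8.60 (log2). rpl32 had 31.1, 36.4, 30.6 and 18.3 TPM with Ovation, against 7189, 6339, 6690.3 and 7264 TPM with Smart-seq2, and the mean difference of petL was -7.64. TPM of such short genes depends on the fragment lengths of each library, and on the CPM scale 48 loci were counted as different in place of 77. psbA, the 1 locus higher, had 389.5, 350.1, 531.2 and 385.8 TPM with Ovation, against 63.0, 82.0, 92.5 and 99.3 TPM with Smart-seq2, a mean difference of 2.40 (log2). psbC, psbD and rbcL were higher by means of 1.65, 1.48 and 1.06, within the size rule.

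With SMARTer the order was different. psbT had 27.1, 31.0, 64.4 and 58.5 TPM at 0.1, 0.5, 1 and 5 ng, against 1244, 1733, 2018 and 2114 TPM with Smart-seq2, the lowest coding locus at a mean difference of -5.30 (log2), and ycf2 was next at -4.65. rpoC2 had 7.16, 7.61, 7.70 and 9.94 TPM with SMARTer, against 95.1, 90.8, 103.2 and 111.9 TPM with Smart-seq2. psbE had 2276, 3821, 4257 and 1934 TPM with SMARTer, against 725, 811, 715 and 738 TPM with Smart-seq2, a mean difference of 1.99, and rbcL was higher by a mean of 1.75. psbA, with 1 library per amount, had 149.4, 87.5, 56.4 and 40.5 TPM with SMARTer at 0.1, 0.5, 1 and 5 ng, lower at each larger amount of these 4, and 145.4 TPM at 0.05 ng. It lay above the Smart-seq2 mean at 0.1 ng and below it at 5 ng. The share of adenine and the kit difference had a Spearman correlation across the 74 genes of -0.53 for Ovation and -0.45 for SMARTer, against 0.18 and 0.07 for coding length. For the longest adenine run the correlations were -0.31 and -0.25. For the number of marked runs per 1000 bases they were -0.52 and -0.37. The part of adenine in the kit differences was not tested.

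**Figure D5:**
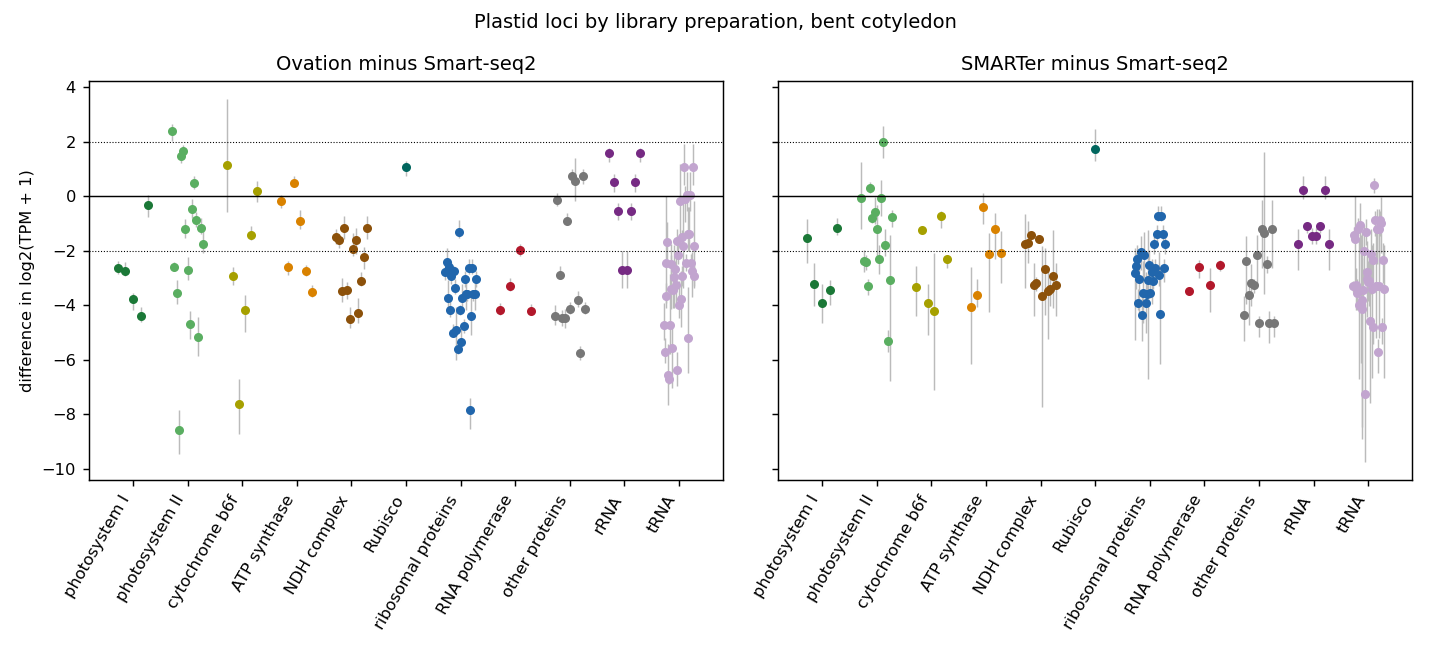
Difference in log2(TPM + 1) of each plastid locus between a kit and Smart-seq2, by class, with Ovation on the left and SMARTer on the right; points are means over 4 RNA amounts, bars run from the lowest to the highest of the 4 and dotted lines mark a difference of 2. The median of the ribosomal proteins is -3.59 with Ovation and -2.70 with SMARTer, and psbA is the 1 locus counted as higher, with Ovation.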

How the data were processed

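RNA-seq libraries of paired-end 50-base reads were given as 1 table per library. Per the submitters' processing notes cutadapt 1.9.1 and kallisto 0.43.1 were used with TAIR10; their settings and the strand setting are not given in the sources used here. The estimated counts and TPM per transcript are the authors' deposited values, named so in the file headers; TPM divides by effective length and is scaled over all transcripts of a table. Estimated counts were summed per locus and rounded to whole numbers. edgeR 4.0.16 (R 4.3.3) filtered low genes with filterByExpr, scaled by TMM and fitted its quasi-likelihood model to the 24 stage libraries (21014 genes) and to the 12 Smart-seq2 bent-cotyledon libraries (17090 genes). p-values were two-sided and adjusted by Benjamini-Hochberg over all genes of a fit, with a threshold of 0.05. The SE given with a log2 fold change was calculated back from the test. It is the absolute log2 fold change divided by the square root of the F statistic. Of the plastid loci 130 and 122 passed the filter; trnM (ATCG00460) and trnL (ATCG00880, ATCG01260) did not in the stage fit. Kits had 1 library per amount and no test. Total counts were 8432892 to 35807605 in stage libraries and 1021484 to 11552331 in the 12 diluted or undiluted bent-cotyledon libraries. The fit was also run on simulated counts with the same dispersion for every gene. That setting lacks the outlying libraries seen here, so it does not show how well the fit suits these data. Alternatives were RLE factors, DESeq2 1.42.0, no filter, limma 3.58.1 on log2(TPM + 1), scaling on nuclear genes, summed repeat copies, a replicate block, a fit of 2 groups and leaving out each library.

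Members and lists were chosen with earlier results of these data known. Named were, per class, the loci with the highest mean TPM, and per comparison the 3 largest rises and falls among called coding loci with at least 50 CPM in the higher group, to which further members were added by role. The labels tie the diluted libraries of 1 number to 1 RNA. Residuals of same-numbered libraries had a mean correlation of 0.163 there. The mean for other numbers, -0.0814, is no separate comparison, because centring each group on its mean ties it to the first value. The count of loci lower or higher within each RNA was added after seeing the data. Mature green titles number 3 replicates, while each description calls its library the first. Some loci are not reported here by name, though the counts of loci include them.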

Additional observations from a re-analysis of the deposited data

How the results depend on the processing

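The loci called at mature green against bent cotyledon, at mature green against preglobular and over all stages stayed within 1.5 times under every alternative; the smaller steps did not, and the cause was not tested. With limma on log2(TPM + 1) 63 loci were called at globular (63 higher, 0 lower), 32 at early heart, 10 at early torpedo and 4 at late torpedo; that scale moves the median of all genes by 0.35, 0.24, -0.32 and -0.04 at these steps. At mature green against bent cotyledon psbM had a log2 fold change of -0.94 by limma, against 0.08 by edgeR. At mature green against preglobular 2 called loci turned by limma, ndhF (-0.06, against 0.46 by edgeR) and ccsA (-0.00014, against 0.58), neither called by limma. At late heart RLE factors gave 9, DESeq2 33, no filter 8, summed copies 8 and a fit of 2 groups 63. At late torpedo DESeq2 gave 10, and no filter, summed copies and a fit of 2 groups gave 0. DESeq2 split the globular calls into 16 higher and 13 lower. With a replicate block 5 loci were called at early heart, 9 at late heart and 0 at late torpedo, and the other counts moved by less than 1.5 times; the mean correlation of same-numbered stage libraries was -0.0149, with 6 of 84 pairs above 0.1, so the stages share only a number. With CPM 48 loci differed with Ovation, and under a size rule of 1 the SMARTer count was 100.0. Coding loci alone took 3.097% of counts at bent cotyledon, against 8.34% for all plastid loci.

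Leaving out 1 library gave 8 to 22 calls at globular, 1 to 11 at early heart, 1 to 22 at late heart, 11 to 41 at early torpedo, 0 to 20 at late torpedo, 29 to 59 at bent cotyledon, 112 to 119 at mature green against bent cotyledon, 97 to 104 against preglobular, 123 to 126 over all stages, 0 to 2 at 0.1 ng and 0 at 0.5 and 1 ng. It gave 76 to 79 loci for Ovation, 54 to 59 for SMARTer and a share of 7.72 to 9.21%. Of the values for shares and for the single loci picked for naming in each comparison, 551 kept their side of the threshold. Among them 38 others lost and 3 gained significance, and 1 turned (psbM, above). ndhF and ccsA, which also turned, were not among the loci picked for that comparison. A change of direction was counted only where the locus was called in at least 1 of the 2 fits compared. 2 shares moved, to 0.699% at mature green and 0.416% at preglobular with coding loci alone. Low counts limit the tRNA loci most.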

Other observations

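The kit libraries made from 0.05 ng have no Smart-seq2 counterpart. At that amount psbA had 362.3 TPM and psbM 60.2 TPM with Ovation, while with SMARTer psbA had 145.4 TPM, psbT 54.5 TPM and rbcL 1199 TPM.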
